A study of Drosophila melanogaster with 3 samples.

Results

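The 10 genes described here encode the nuclear receptors of the ecdysone cascade of Drosophila melanogaster: EcR, usp, Eip75B, Eip78C, Hr3, Hr4, Hr38, Hr39, Hr78 and ftz-f1. They were listed by name, with no measured value in the rule but with earlier results of these data known, from the 13968 protein-coding genes of the annotation. At each gene, every peak summit within 500 bp of a transcription start site, in the gene body or within 5 kb of it was taken from the deposited peak lists. The question was which of the alternative start sites and introns of these genes carried peaks of the protein Coop.

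The steroid hormone 20-hydroxyecdysone times the moults and metamorphosis of insects. It binds a heterodimer of EcR and Usp, which switches on a first set of genes that includes Eip75B. The products of these early genes, many of them nuclear receptors themselves, then activate or repress later ones, so that Hr3, Hr4, Eip78C, Hr39 and ftz-f1 appear in succession as the hormone rises and falls. Several of these genes use alternative promoters that give receptors with different N-terminal parts, as is known for the A, B1 and B2 forms of EcR and for the forms of E75, the product of Eip75B.

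Coop (CG1621) represses Wingless target genes together with Pangolin, the TCF factor of that pathway, by earlier work on it. Binding was mapped by ChIP-seq in whole prepupae of both sexes, aged 24 h, of 1 transgenic line that stably expresses Coop with eGFP fused to its C-terminal end. The 3 biological replicates formed 1 group with no second condition, so the loci could be set only against the rest of the genome and no test between groups was made. The description field of every library calls it an input control, whereas the assay title and the antibody field describe ChIP of the tagged protein, and all values below rest on reading the libraries as ChIP. What drives the transgene was not given in the sources used here. Whole animals were used, so binding in many cells and strong binding in a few cells cannot be told apart.

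The peaks came from 5 lists on the dm6 build: a thresholded list of 6626 peaks drawn from the 3 replicates together, a relaxed pooled list of 30000 regions that contains it, and a relaxed list of 30000 regions for each replicate. The deposited signal value of a peak is a score without a unit, which ranges from 171 to 8603 in the thresholded list. Its scale differs between lists, so replicates are compared by rank, where rank 1 is the strongest region. The 6626 strongest regions of each replicate are called its strongest regions, and a thresholded peak counted as found in a replicate when one of these had its summit within 100 bp. Read counts were not analysed here and the depth is unknown. The Coop gene itself had a peak of signal 3745, at rank 11 of the thresholded list and at ranks 12, 53 and 10 in replicates 1, 2 and 3.

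All 10 receptor genes had at least 1 thresholded summit in the gene body or within 5 kb, against 51.2% of all protein-coding genes. The receptor genes are long, with a median length of 36625 bp against 2165 bp for all genes, and longer genes offer more room for a summit. At start sites, 6 of the 10 genes were bound, which here means a thresholded summit within 500 bp (exact Clopper-Pearson 95% interval of 26.2% to 87.8% for 60%), against 21.1% of all genes. This excess depended on the weaker peaks. Among the 3313 strongest thresholded peaks it was gone, with 1 of the 10 genes bound, slightly below the 11.9% of all genes. Among peaks found in all 3 replicates, 2 of the 10 were bound against 10.7%. With so few genes, neither setting fixes a direction. In the whole thresholded list the bound genes were EcR, usp, Eip75B, Hr38, Hr78 and ftz-f1, whereas Eip78C, Hr3, Hr4 and Hr39 had none at a start site. A gene counts as bound through any of its start sites, and the receptor genes have more of these per gene. They have 29 over 10 genes, against 19630 over 13968 genes, which favours the receptors in the count by gene. Counted by start site, 13 of the 29 distinct start sites of the 10 genes were bound, against 20.0% of 19630 start sites of all genes. Internal start sites carried most of these: 10 of 19 internal sites and 3 of 10 outermost sites were bound, against 23.5% of internal and 18.6% of outermost sites of all genes. At Hr78, 1 summit counts for 3 of these sites.

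A total of 65 thresholded summits lay at the 10 loci. They amount to 11.9 summits per 100 kb, against 4.82 per 100 kb over all arms. The arms include stretches more than 5 kb from any gene, and no density over the loci of all genes is given. Of the 65 summits, 45 were in introns (69.2%, interval 56.6% to 80.1%) and 11 were at start sites (16.9%, interval 8.76% to 28.3%). Among the 6113 thresholded summits within 5 kb of any gene, 41.3% were intronic and 43.9% were at start sites. The rules differed: receptor summits were classed against their own gene only, whereas a start site of any gene counted for all summits. By the latter rule, the flank summits upstream of Hr4 and Hr3, which lie at start sites of other genes, would be start site summits. This difference also holds for the shares by replicate. The same split appeared in each replicate. Among the strongest regions of each, introns held 69.7%, 72.1% and 65.5% of the summits at the receptor loci in replicates 1, 2 and 3, a mean of 69.1% ± 3.38 (SD, n = 3), against 40.0% ± 4.34 at all genes. Start sites held 14.3% ± 3.86 of the summits at the receptor loci, against 45.0% ± 5.83 at all genes. The receptor loci were thus marked mainly within introns, in every replicate. As given above, the receptor genes are much longer than the median gene. Genes of like length were not compared, and the part of gene length in this split was not tested.

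**Figure D1:**
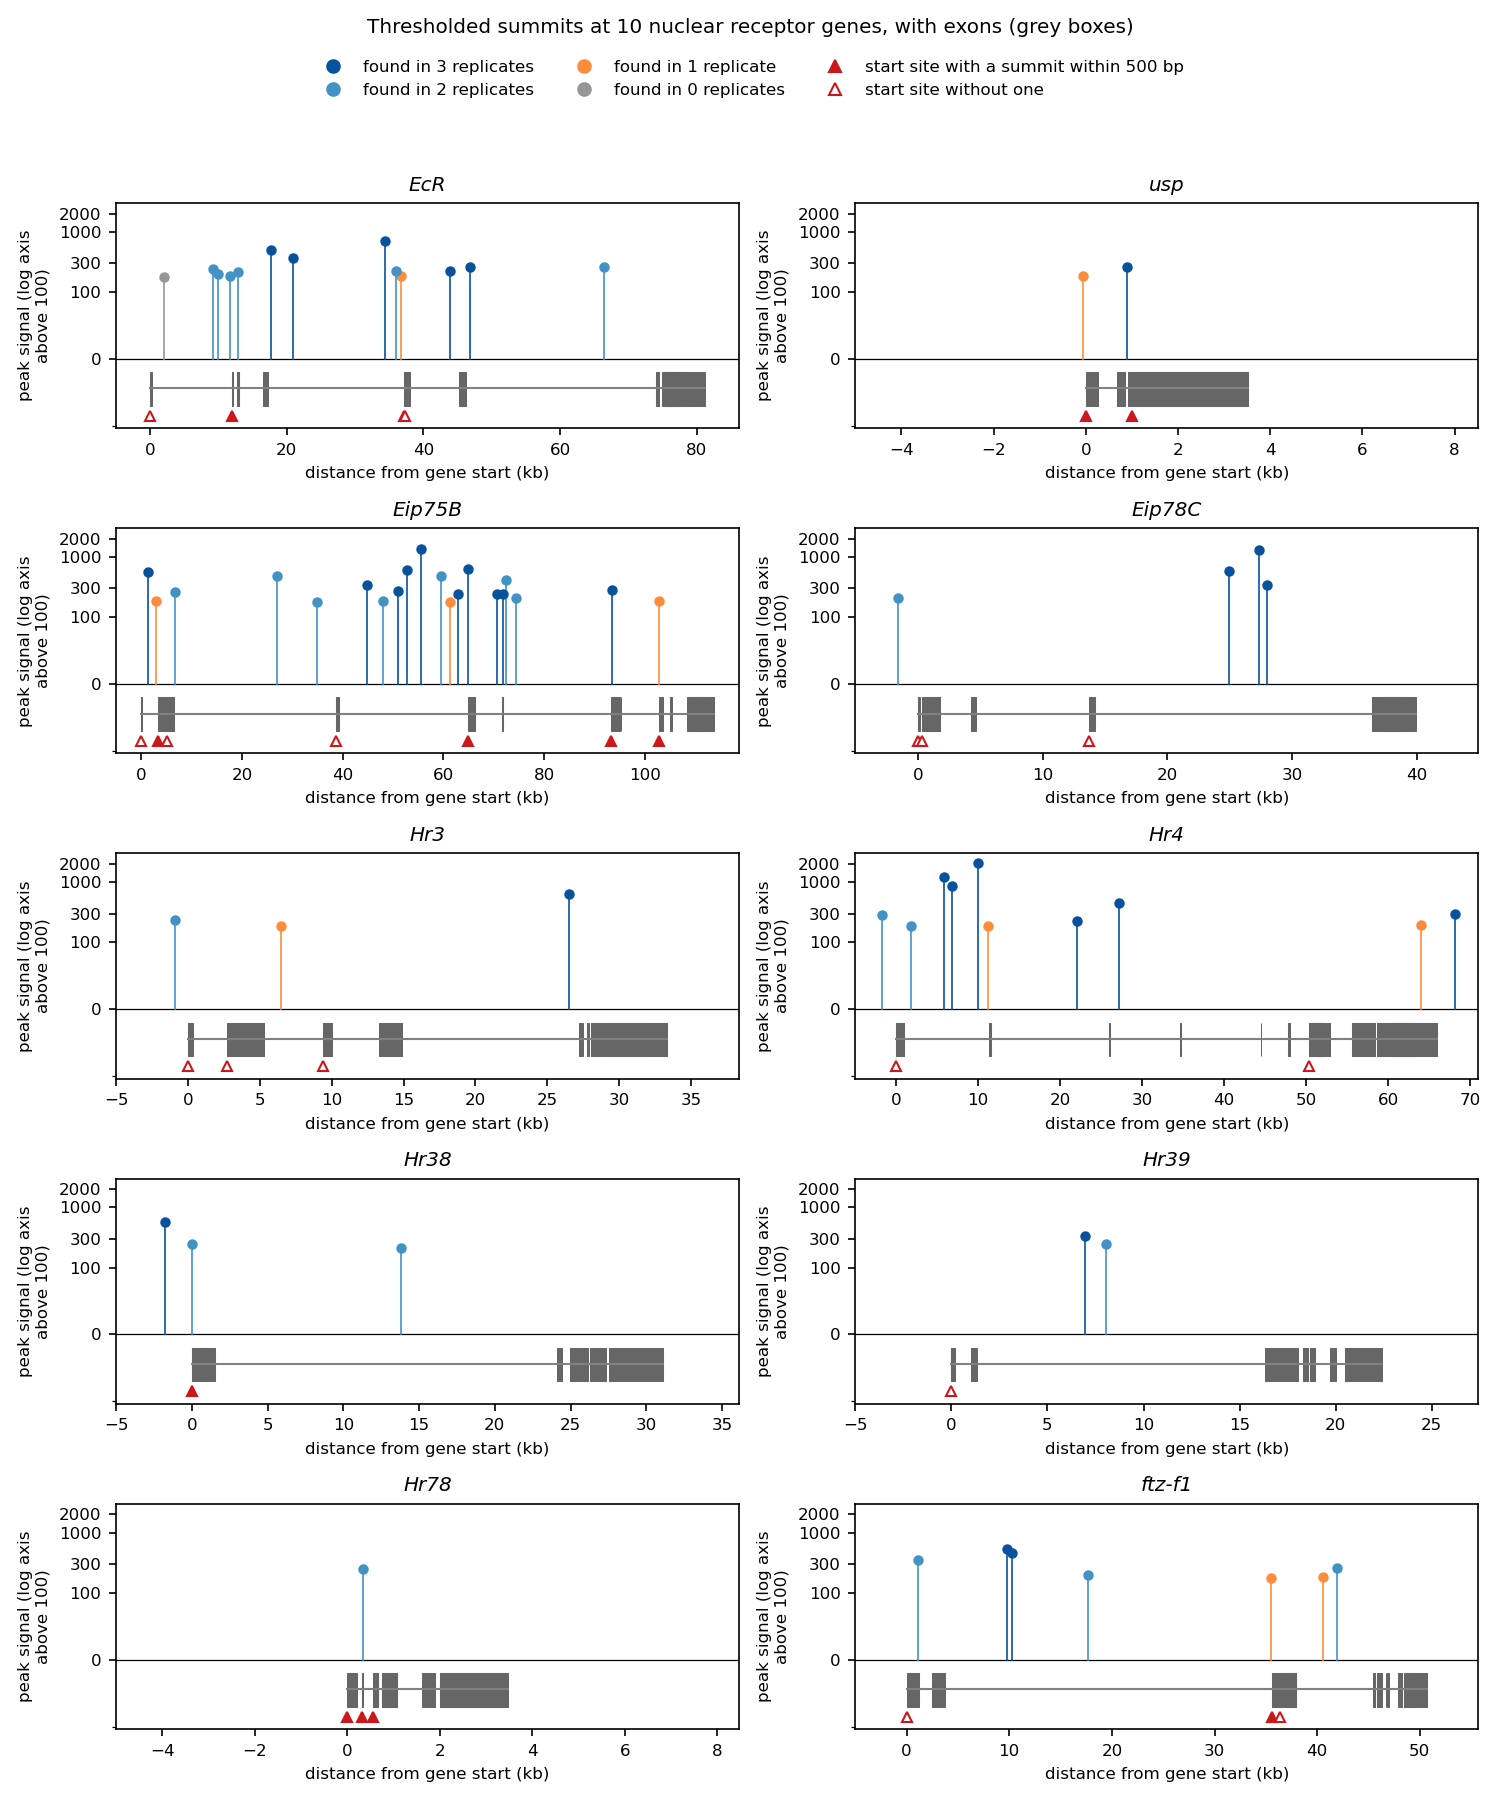
Thresholded summits at the 10 loci, 1 panel per gene. The x axis is the distance from the gene start in kb along the direction of transcription, the y axis is the deposited peak signal (log axis above 100), grey boxes are exons, and triangles are start sites, filled where a summit lay within 500 bp. The tallest summits, at Hr4, Eip75B and Eip78C, stand in introns away from the triangles.

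EcR and usp encode the 2 partners of the hormone receptor. EcR (FBgn0000546, 2R:6087873-6169087, minus strand) had 13 summits, of which 10 were intronic, 2 were at start sites and 1 was in an exon outside the coding sequence. The strongest regions of replicates 1, 2 and 3 placed 11, 14 and 11 summits there. Of its 4 start sites, the outermost, of transcript RA, had no summit in any of the 5 lists. The start site of RD and RE was bound by a weak peak 274 bp upstream (signal 181, rank 6150), which ranked 3255 and 4405 in replicates 2 and 3. Replicate 1 had no region within 100 bp of that peak. Its highest-ranked region within 500 bp of the start site lay 344 bp downstream of the site, at rank 7031. The start site of RB and RC counted as bound through a summit 474 bp upstream (signal 182), and a window of 250 bp left EcR with no bound start site. That summit was found in replicate 3 only, where it ranked 1904.

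The strongest EcR peak lay 2751 bp upstream of the RB and RC start site, within an intron of 56758 bp of RA, RD and RE. Its signal was 698 (rank 802), and it ranked 1754, 515 and 900 in replicates 1, 2 and 3. Further summits in the same intron, 8939 and 5757 bp downstream of the RD and RE start site, had signals of 369 and 506 and were found in all 3 replicates. Peak strength in EcR was therefore highest in the interval between its internal promoters. The weakest summit, 2023 bp downstream of the RA start site (signal 180), was the 1 summit among the 65 that was found in none of the replicates.

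Usp is the partner of EcR and the fly counterpart of the vertebrate retinoid X receptor. The gene usp (FBgn0003964, X:2038798-2042311, minus strand) is short, at 3514 bp, and both of its start sites were bound by separate peaks. The summit 112 bp upstream of the RA start site had a signal of 262 (rank 3818) and ranked 3667, 3008 and 6131 in replicates 1, 2 and 3. The summit 52 bp upstream of the RB start site had a signal of 182 and was found in replicate 1 only, where it ranked 2655, against ranks of 8091 and 7881 for the strongest regions there in replicates 2 and 3. Start sites of CG4313 or Actn lie within 500 bp of these summits, so both peaks may be counted for those genes too.

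Eip75B (FBgn0000568, 3L:17950953-18064696, minus strand) is an early gene whose product E75 is a haem-binding receptor that represses Hr3 function. It had 20 thresholded summits over 113744 bp, and only 3 protein-coding genes had more: kirre and tara with 24 each and sbb with 21, while Tet followed with 19. The median protein-coding gene had 1. The strongest regions of replicates 1, 2 and 3 placed 20, 18 and 17 summits at Eip75B, a mean of 18.3 ± 1.53 (SD, n = 3). Of these 20 summits, 15 were intronic, 4 were at start sites and 1 was in a coding exon, and 10 were found in all 3 replicates.

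The 7 start sites of Eip75B differed. The RC start site carried the strongest start site peak of all 10 genes, 34 bp downstream of the site (signal 621, rank 998), with ranks of 2528, 593 and 1975 in replicates 1, 2 and 3. The RA start site had a summit 207 bp downstream (signal 287), with ranks of 2776, 4536 and 3397. With the RA start site of usp, these were the only 3 of the 29 start sites that had a summit among the strongest regions of all 3 replicates. The other 2 bound sites varied more between replicates. The RD start site had a summit 28 bp downstream (signal 183) that ranked 3062 in replicate 1 and 11639 in replicate 2. Replicate 3 had no region within 100 bp of that summit. Its strongest region within 500 bp of the RD start site lay 96 bp upstream of the site, at rank 27401. The RE start site had a summit 342 bp upstream (signal 188), and replicate 1 had no region within 500 bp but one just outside, 515 bp upstream, at rank 3371. The start sites of RF, RB and RG were not bound, although RF had a region among the strongest of replicates 1 and 3, at ranks 6328 and 6458.

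Within Eip75B, the strongest peak stood 9364 bp upstream of the RC start site, in an intron of up to 65240 bp of transcripts RB, RE, RF and RG. It had a signal of 1336 (rank 206) and ranked 235, 192 and 311 in replicates 1, 2 and 3. A second summit 12107 bp upstream of the same site had a signal of 614 and ranked 1233, 1024 and 1024. Another pair of strong summits was uneven between replicates: one 5380 bp upstream of RC (signal 476) ranked 836 and 1722 in replicates 2 and 3 but 10068 in replicate 1, and one 11650 bp upstream of RG (signal 489) ranked 1054 and 1309 in replicates 2 and 3 but 8088 in replicate 1. In the first intron of RF, a summit 1396 bp downstream of the start site (signal 560) ran the other way, at ranks 418, 1342 and 4392.

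Eip78C (FBgn0004865, 3L:21226609-21266503, plus strand) encodes E78, a receptor related to E75. None of its 3 start sites was bound, and the outermost pair, of RD and RE and of RA, had no summit in any list. Its strong peaks were 3 intron summits downstream of every start site, in an intron of up to 31685 bp. The strongest, 13557 bp downstream of the RB start site, had a signal of 1285 (rank 226) and ranked 538, 159 and 291 in replicates 1, 2 and 3. Its neighbours, 11203 and 14237 bp downstream of the same site, had signals of 574 and 336, and all 3 were found in every replicate. The fourth summit, 1598 bp upstream of the gene, was weak (signal 210) and was found in replicates 1 and 2.

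Hr4 (FBgn0264562, X:1941940-2007956, plus strand), a repressor that acts with Hr3 on early genes, carried the strongest peak of the 10 loci. It had 10 thresholded summits, of which 6 were found in all 3 replicates. The strongest regions of each replicate also placed 10 summits there, not all at the same positions. The leading peak lay 9972 bp downstream of the first start site, in an intron of up to 10387 bp that is the first or second of the transcripts starting there, with a signal of 2062 (rank 74) and ranks of 83, 75 and 65 in replicates 1, 2 and 3. In the same intron, summits 5805 and 6774 bp downstream of the start site had signals of 1234 and 864. The first of these ranked 287, 220 and 436, and the second ranked 617, 654 and 417. These 3 peaks, with the strongest of Eip75B and of Eip78C, were the 5 summits of the receptor loci among the 662 strongest of the thresholded list, and all 5 were intronic. Neither of the 2 start sites of Hr4 was bound. The site shared by 7 of its 9 transcripts had its strongest pooled region within 500 bp at rank 18441, and that of RE and RF had none in any list.

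The sequences of the strongest intron peaks are shown because the 5 summits of highest signal at the receptor loci are all intronic. Each is 100 bp on each side of the summit from the RefSeq release 6 genome (dm6), in lower case and on the plus strand. Capitals mark matches on either strand to the words searched (AGGTCA, the hexamer core of nuclear receptor sites; GAGAG, the GAGA element; CTTTGA and TTTGAT, the TCF core words; and the promoter elements DRE and Motif 1), and to GGTCCAC, a word chosen after these windows had been read.
Hr4 summit at 9972 bp, chrX:1951812-1952012, plus strand: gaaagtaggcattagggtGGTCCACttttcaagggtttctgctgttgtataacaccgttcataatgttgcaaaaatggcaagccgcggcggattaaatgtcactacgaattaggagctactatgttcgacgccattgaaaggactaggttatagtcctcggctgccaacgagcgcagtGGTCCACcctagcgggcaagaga
Hr4 summit at 5805 bp, chrX:1947645-1947845, plus strand: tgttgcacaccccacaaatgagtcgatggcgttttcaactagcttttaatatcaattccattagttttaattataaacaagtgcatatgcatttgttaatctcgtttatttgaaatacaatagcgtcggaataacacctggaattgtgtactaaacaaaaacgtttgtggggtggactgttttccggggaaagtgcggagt
Hr4 summit at 6774 bp, chrX:1948614-1948814, plus strand: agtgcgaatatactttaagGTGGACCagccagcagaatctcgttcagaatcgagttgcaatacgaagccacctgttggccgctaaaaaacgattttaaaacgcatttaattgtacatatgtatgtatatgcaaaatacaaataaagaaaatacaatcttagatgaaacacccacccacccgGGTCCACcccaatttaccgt
Eip75B summit 9364 bp upstream of RC, chr3L:18009085-18009285, plus strand: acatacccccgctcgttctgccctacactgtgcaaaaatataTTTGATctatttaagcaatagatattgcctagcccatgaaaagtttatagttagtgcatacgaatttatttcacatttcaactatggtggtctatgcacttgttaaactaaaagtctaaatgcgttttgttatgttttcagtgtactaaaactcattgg
Eip75B summit 12107 bp upstream of RC, chr3L:18011828-18012028, plus strand: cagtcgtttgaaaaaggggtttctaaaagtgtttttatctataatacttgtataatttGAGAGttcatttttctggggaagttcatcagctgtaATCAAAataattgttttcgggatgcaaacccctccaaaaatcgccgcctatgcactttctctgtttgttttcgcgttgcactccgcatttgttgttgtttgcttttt
Eip78C summit 13557 bp downstream of RB, chr3L:21253804-21254004, plus strand: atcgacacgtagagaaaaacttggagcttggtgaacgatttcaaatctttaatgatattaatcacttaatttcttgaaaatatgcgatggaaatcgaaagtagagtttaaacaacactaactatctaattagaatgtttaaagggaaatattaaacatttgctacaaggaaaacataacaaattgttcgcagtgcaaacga
None of the 6 windows held AGGTCA. The word GGTCCAC, or its reverse complement, began 82 bp before and 78 bp after the summit of the strongest Hr4 peak, and 81 bp before and after the summit 6774 bp downstream of the start site. It was in no other window of the receptor loci (2 of 65, 3.08%, interval 0.375% to 10.7%) and in 0.981% of the windows of all 6626 summits. As the word was picked from these windows, setting these shares side by side is not a test. The strongest Eip75B window held TTTGAT beginning 58 bp before the summit, and the window 12107 bp upstream of RC held its reverse complement ATCAAA beginning 6 bp before the summit and GAGAG 42 bp before it. The Eip78C window and the remaining Hr4 window held none of the words. No stretch of 30 bases in any of the 65 windows occurred a second time on the main chromosome arms.

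ftz-f1 (FBgn0001078, 3L:18750607-18801309, minus strand) encodes the competence factor that lets prepupae respond to the next hormone pulse. It had 7 thresholded summits, and the strongest regions of replicates 1, 2 and 3 placed 8, 4 and 3 there. The strongest pair lay in the intron of 33674 bp of transcript RB, 9739 and 10282 bp downstream of the RB start site, with signals of 534 and 458. The first ranked 629, 1083 and 3083 in replicates 1, 2 and 3, and the second ranked 789, 2617 and 1570. The start site of RC and RD was bound by a peak 99 bp upstream (signal 176, rank 6409), the weakest of the 65, which was found in replicate 1 only. The RB start site had a region at rank 1493 in replicate 1, 171 bp upstream, and none within 500 bp in replicates 2 and 3 or in the pooled list. At ftz-f1, regions among the strongest at a start site came from replicate 1 only, although replicates 2 and 3 had the RC and RD region at lower rank. The intron pair was found in all 3 replicates.

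Hr38 (FBgn0014859, 2L:20683462-20714588, minus strand), the fly NR4A receptor, which can also pair with Usp, had a single start site, and this was bound by a summit 13 bp upstream (signal 242) at ranks 3893, 7045 and 3976 in replicates 1, 2 and 3. A stronger peak stood 1796 bp upstream of that site, with a signal of 572 and ranks of 2091, 1302 and 684. The third summit, in the intron 13817 bp downstream, had a signal of 210 and was found in replicates 2 and 3. Hr39 (FBgn0261239, 2L:21237250-21259675, plus strand), a relative of ftz-f1, had 2 summits, both in the second intron, 6949 and 8046 bp downstream of its single start site. Their signals were 337 and 248, and the first ranked 3094, 3132 and 2807. The Hr39 start site was not bound, but replicate 1 had a region at rank 2698 there, 55 bp upstream, while replicate 2 had none within 500 bp and replicate 3 had one at rank 11665.

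Hr78 (FBgn0015239, 3L:21494019-21497494, minus strand), which is required for the response to ecdysone in larvae, had 1 summit, 29 bp downstream of the RE start site (signal 244, rank 4232). As its 3 start sites lie close together, this 1 peak counted for all 3. The summit ranked 3261 and 2702 in replicates 2 and 3 but 29198 in replicate 1. Hr3 (FBgn0000448, 2R:10203995-10237348, minus strand), which represses early genes and activates ftz-f1, had 3 summits and no bound start site. Its strongest summit was intronic, 17152 bp downstream of the RA, RF and RH start site, with a signal of 629 (rank 975) and ranks of 3175, 728 and 810 in replicates 1, 2 and 3. This intron position also lies within the annotated genes CG12912 and CG46321. A summit 908 bp upstream of the RD start site (signal 237) lies within 500 bp of a start site of Hdc, the histidine decarboxylase gene, so it may be counted for either gene. The RA, RF and RH start site had a region among the strongest of replicate 1 only, at rank 6025.

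**Figure D2:**
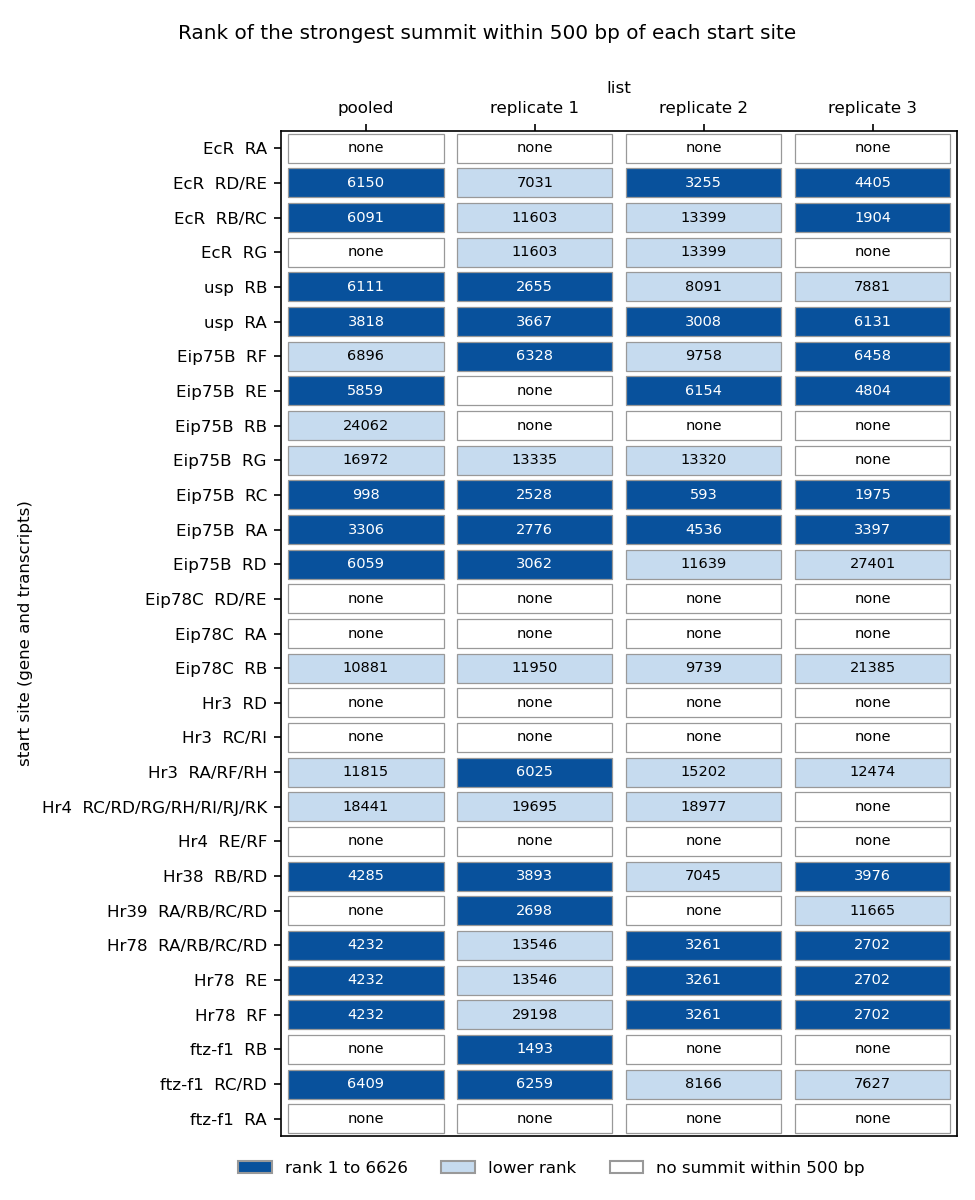
Rank of the strongest summit within 500 bp of each of the 29 start sites, listed down the page by gene and transcripts, in the pooled list and in replicates 1 to 3. Dark cells are ranks 1 to 6626, pale cells are lower ranks, and white cells have no summit. The RA site of usp and the RC and RA sites of Eip75B are dark in all 3 replicates, and 7 rows are white throughout.

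Across the 10 genes, replicates placed 6, 4 and 5 bound genes in replicates 1, 2 and 3, a mean of 5 ± 1 (SD, n = 3), against 25.9%, 21.3% and 18.1% of all protein-coding genes. The bound start sites numbered 11, 8 and 11. Of the 29 start sites, 3 had a summit among the strongest regions of all 3 replicates and 12 in none. In the whole relaxed pooled list, 19 of the 29 had a summit, against 42.1% of all start sites, and 7 had no summit in any of the 5 lists. These 7 were the outermost sites of EcR, Eip78C and Hr3, the RA site of Eip78C, the RC and RI site of Hr3, the RE and RF site of Hr4 and the RA site of ftz-f1. No share of all start sites is given for the counts by replicate or for sites without a summit in any list. Those counts describe the 29 sites only and cannot be set against the genome.

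Start site peaks at the receptor genes were weak. Their median signal was 188 (range 176 to 621, n = 11 summits), against 294 for all thresholded summits within 500 bp of a start site of any protein-coding gene. Of the 11, 2 were among the 3313 strongest of the list. Intron summits had a median of 264 (range 180 to 2062, n = 45), and 21 of these were among the 3313 strongest. Flank summits had a median of 289 (range 210 to 572, n = 5). The summit at this median, 1741 bp upstream of Hr4, lies within 500 bp of start sites of CG3587 and CG3857. It may be counted for those genes too, as the flank summit of Hr3 may be for Hdc. Over all 65 summits the median was 253, against 287 for the whole thresholded list. Of the 45 intron summits, 32 were more than 5 kb from the nearest start site of their gene, 33 lay upstream of at least 1 internal start site, and 12 lay downstream of all of them.

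**Figure D3:**
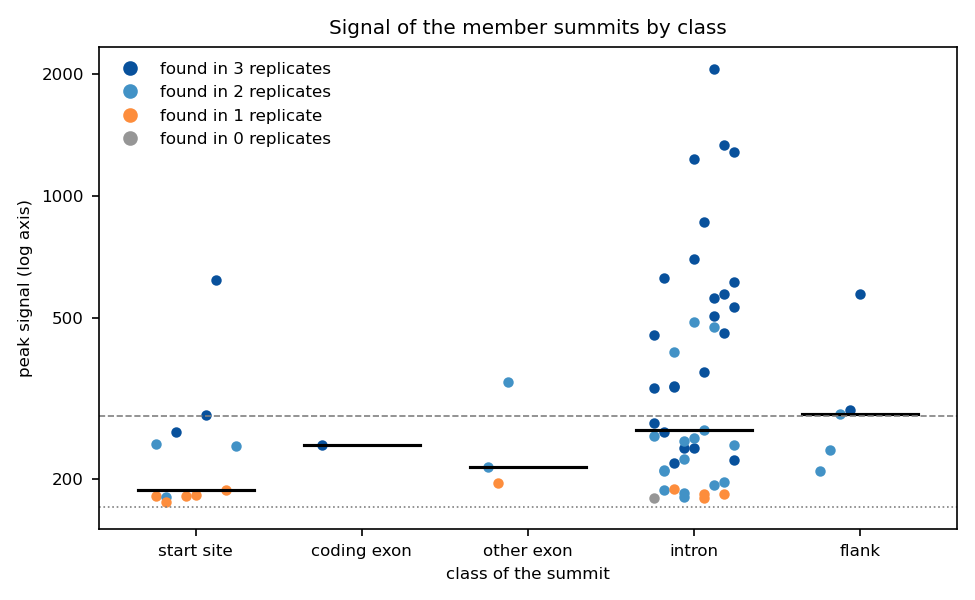
Deposited signal (log axis) of the 65 thresholded summits of the receptor loci by class, coloured by the number of replicates in which each was found. Black bars are medians, the dashed line is the median of 287 of the whole thresholded list and the dotted line its lowest value of 171. Most start site summits lie near the lowest value, the highest of them stands at 621, and the values above 1000 are all intronic.

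Of the 65 summits, 30 were found in all 3 replicates (46.2%, interval 33.7% to 59.0%), against 48.0% of all thresholded summits, and 24 were found in 2, 10 in 1 and 1 in none. The share was 75.4% in replicate 1, 76.9% in replicate 2 and 75.4% in replicate 3, a mean of 75.9% ± 0.888 (SD, n = 3), against 69.5%, 82.3% and 78.1% of all thresholded summits. By class, 24 of 45 intron summits and 3 of 11 start site summits were found in all 3 replicates. The classes also differed in signal, as given above, and the part of signal in this split was not tested. The number of strongest regions at the 10 loci was 66, 61 and 55 in replicates 1, 2 and 3. Hr4 had 10 in every replicate, whereas ftz-f1 and Eip78C had the widest relative spread among genes with 4 or more thresholded summits, at 8, 4 and 3 and at 7, 4 and 3. Equal counts need not be the same summits. Of the thresholded summits, 6 of 10 at Hr4, 3 of 4 at Eip78C and 2 of 7 at ftz-f1 were found in all 3 replicates.

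**Figure D4:**
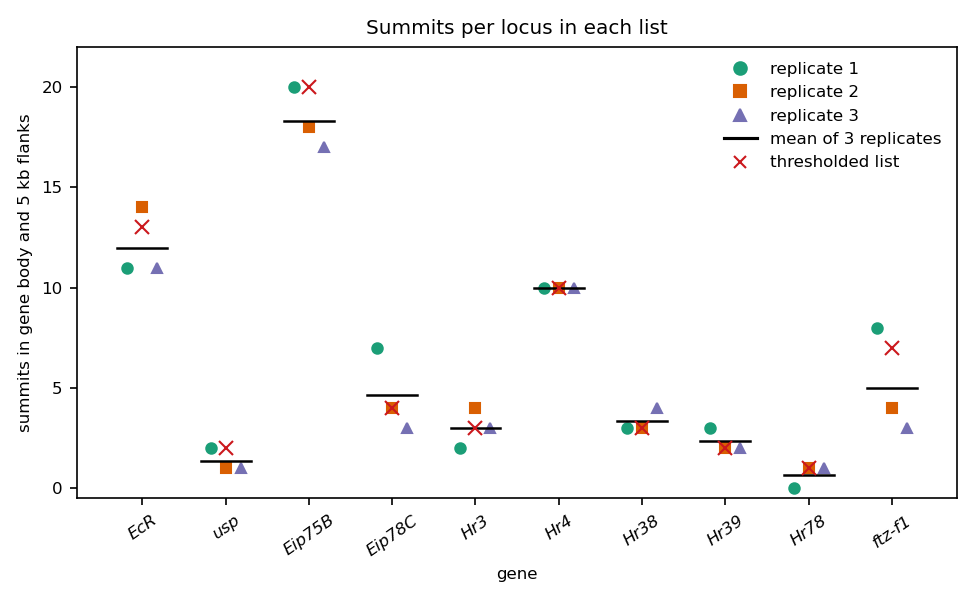
Number of summits in the gene body and 5 kb flanks of each gene, among the strongest regions of replicates 1 to 3 (symbols, with their mean as a bar) and in the thresholded list (crosses). Eip75B, EcR and Hr4 lead in every replicate, and replicate 1 is highest at Eip78C and ftz-f1.

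In the 65 windows of 100 bp on each side of a summit, AGGTCA occurred in 5 on either strand (7.69%, interval 2.54% to 17.0%), against 3.56% of all 6626 windows. These 5 were 2 intron summits of Eip75B, 1 intron summit each of Hr39 and ftz-f1, and the flank summit of Hr3. No window held AGGTCA 2 times as a direct, inverted or everted repeat with 0 to 5 bases between them, and none of the 6626 did. GAGAG was in 28 windows (43.1%, interval 30.8% to 56.0%), against 30.7% of all. The TCF core CTTTGA was in 7.69%, against 9.95%, and TTTGAT in 12.3%, against 16.9%. DRE and Motif 1, elements of broadly active promoters, were in 0 of 65 windows, which allows up to 5.52% each, against 2.20% and 1.69% of all windows. Median GC content was 43.8% (range 24.4% to 60.2%), against 39.8%. The peak width of 404 bp, the most common of the list, was recorded for 53.8% of the receptor summits, against 32.2% of all.

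Related genes in 3 lists were counted in the same way. Of 11 other nuclear receptor genes, 5 were bound at a start site, and in replicates 1, 2 and 3 the counts were 3, 5 and 3. The strongest were Hr96, a xenobiotic and lipid sensor, with a signal of 1308, and Hnf4, a regulator of fat metabolism, with 423, followed by ERR, a regulator of carbohydrate metabolism, with 267 and eg with 225. The Hr96 peak exceeded every start site peak of the cascade receptors. Of 8 genes listed by symbol as cofactors of the ecdysone receptor, 3 were bound, with counts of 5, 2 and 2 in the replicates. They were bon, of the TIF1 family, with 323, the coactivator gene tai with 302 and rig with 243. The unbound entry dor was matched by symbol to FBgn0000482 on X, deep orange, which is not an established cofactor of this receptor. The count of 8 and its interval include that gene. Of 17 other genes of the ecdysone response, 9 were bound, with counts of 8, 9 and 8. Their strongest were Eip93F with 1153, ImpL2 with 1003, the lactate dehydrogenase gene Ldh with 443 and crc, the fly ATF4, with 406. Each list is small, and its interval is wide: 16.7% to 76.6% for the other receptors, 8.52% to 75.5% for the cofactors and 27.8% to 77.0% for the other response genes. The shares bound were 45.5%, 37.5% and 52.9%, against 60% of the cascade receptors and 21.1% of all protein-coding genes. The 21.1% lies within the first 2 intervals and below the third. By replicate, 25.9%, 21.3% and 18.1% of all genes were bound. Binding at a start site was thus not shown to be particular to the cascade receptors.

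**Figure D5:**
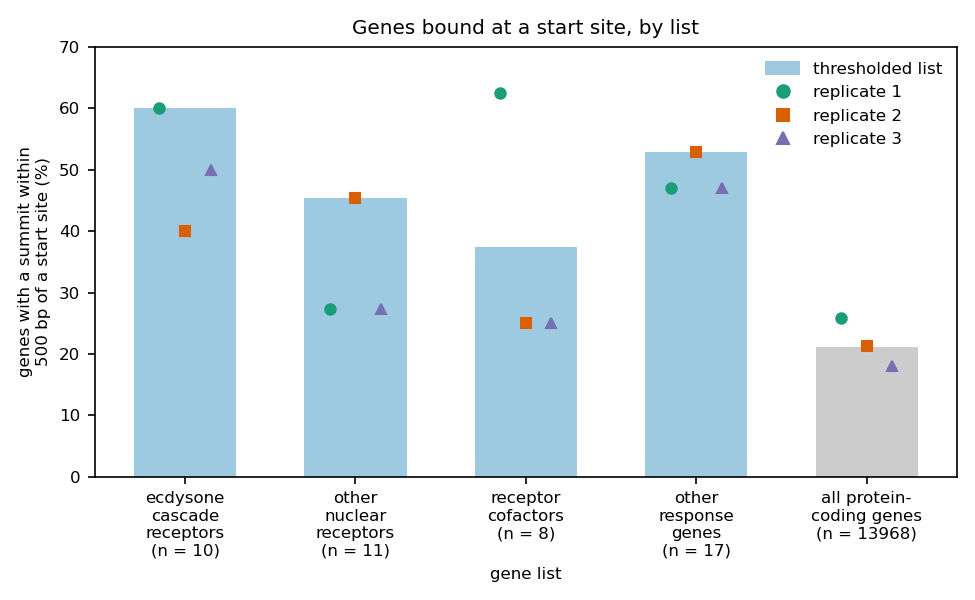
Percent of genes with a summit within 500 bp of a start site in the cascade receptors, the 3 related lists and all protein-coding genes. Bars are the thresholded list and symbols the strongest regions of replicates 1 to 3. In the thresholded list the cascade receptors reach 60%, the related lists 45.5%, 37.5% and 52.9%, and all genes 21.1%. The replicates of the cofactor list lie far apart.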

How the data were processed

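The authors deposited peak lists on dm6 in narrowPeak form: a relaxed list per replicate, a relaxed pooled list and a thresholded list. Per the labels' protocols and the notes with each library, chromatin was sonicated to 200 to 800 bp, and each list was made from the alignment of the library and a control alignment common to the 3 libraries. No caller, version or threshold is named in those notes, so these are not given in the sources used here, and the values are taken as they stand. The deposited signal is a score of the authors' caller, used as a rank within a list. The deposited −log10 q value of each peak is capped and was not used. The thresholded list equals the 6626 strongest regions of the pooled list.

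Summits were placed at 1-based positions and compared with Ensembl release 115 (BDGP 6.54). A summit was put in 1 class in the order start site, coding exon, other exon, intron and flank. Receptor summits were classed against their own gene, and the summits of all genes against every gene within 5 kb. Start sites are distinct first positions of transcripts of protein-coding genes, and 1 summit may count for several. Words were searched on both strands in 201 bp centred on each summit. Motif 1 and DRE are given by name. The code (Python 3.11.15, numpy 2.4.6, scipy 1.17.1) was tested on simulated summits. Intervals are exact 95% Clopper-Pearson intervals and cover the counting of genes or summits only. With 1 group and no read counts, no test was run. The alternatives changed the window, the list, the flank, the matching distance and the replicates used.

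The members and the gene lists were chosen with earlier results of these data known. Named are all 10 members, the bound genes of each related list (the 4 strongest where more than 4 were bound), the 5 genes with most summits, and sequences of up to 6 of the strongest member summits off arm 2R whose bases lie outside untranslated exons, for which 1 stronger summit was passed over. Coop, genes overlapping a member summit and the word GGTCCAC lie outside that rule and were chosen after their values were seen.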

Additional observations from a re-analysis of the deposited data

How the results depend on the processing

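Over the 13 main results, 63 alternatives moved a value by less than the limits set (1.5 times for counts) and 33 moved it further. These values are counts, shares and means of them, which cannot change sign, and no cause was tested. With the 3313 strongest thresholded peaks only, 1 of the 10 receptor genes was bound, against 11.9% of all genes. The excess over all genes was thus gone, and the share lay slightly below theirs. The same setting gave 2 bound start sites, 2 other nuclear receptors and 5 other response genes, and the 10 loci held 27 summits, 7.41% of them at start sites. Of those 27, 81.5% were found in all 3 replicates, with a mean of 93.8% per replicate. With peaks found in all 3 replicates only, 2 receptor genes (usp and Eip75B) and 3 start sites were bound, against 10.7% of all genes, 2 other receptors and 0 cofactors, and 30 summits were left. Both settings use fewer peaks. With the whole pooled list, 222 summits lay at the loci, 8.56% at start sites, and 41.3% of all genes, 6 cofactors and 15 other response genes were bound. All genes bound came to 17.8% with a window of 250 bp, 24.9% with 1000 bp and 17.1% when a summit counted for its nearest start site only.

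The share found in all 3 replicates was 30.8% with a matching distance of 50 bp, 26.2% with the 3313 strongest regions per replicate and 86.2% with the whole relaxed lists. The mean share per replicate was 67.2% with 50 bp, 79.0% with 250 bp, 42.1% with 3313 regions and 94.9% with the whole lists. Receptor genes bound per replicate averaged 3.67 with 3313 regions and 9.33 with the whole lists. Leaving out each replicate in turn gave 53.8% to 64.6% for the share found in the remaining replicates, a mean share of 75.4% to 76.2% and 4.5 to 5.5 bound receptor genes. The intron share of the receptor summits moved by less than its interval under each alternative run for it. No paired analysis was possible because there was a single group. The depth behind each rank is unknown.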

Other observations

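Several genes of the related lists had many summits at their loci, start sites included. These genes were picked after their values were seen. Among the cofactors of the ecdysone receptor, the coactivator gene tai had 13 thresholded summits in its body and 5 kb flanks and the corepressor gene Smr had 9, although no start site of Smr was bound. Among the other response genes, the early gene Eip74EF had 12 and Eip63E, a cyclin-dependent kinase gene, had 9. These compare with 20 at Eip75B, 13 at EcR and 10 at Hr4, and with a median of 1 over all protein-coding genes. Members of the same lists ranged down to 0, as at tll, kni and dor. These counts were not scaled by gene length: the genes named with many summits are long, whereas tll, kni and dor are short.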
